A study of Neurospora crassa with 33 samples.

Results

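The 6 nuclear genes described here encode proteins with which mitochondria turn respiration into ATP, and they were chosen by name from the 9729 genes listed in every library. They are aod-1 (NCU07953), cyc-1 (NCU01808), por (NCU04304), aac (NCU09477), atp-1 (NCU02514) and atp-2 (NCU05430) of the filamentous fungus Neurospora crassa. The study compared Δcpc-3 strains, which lack the kinase CPC-3, with WT strains, and it measured mRNA by mRNA-seq and ribosome-protected fragments (RPFs) by ribosome profiling. Each strain, in both hosts, also carried a Flag-tagged EDP reporter at the csr-1 locus, made of the CDS of NCU05784 in 1 or 3 tandem copies whose codons were native (WT) or optimized (OPT). The groups were thus Δcpc-3 strains with 1xWT-EDP (4 RPF libraries), 3xWT-EDP, 1xOPT-EDP and 3xOPT-EDP (3 RPF libraries each), and WT strains with the same 4 reporters (3 RPF libraries each). Each of the 8 strains had 1 mRNA library. Mycelia were grown on plates for 2 days and then with shaking for 12 h under light in Vogel's medium with 2% glucose, and cycloheximide (0.1 mg/ml) was present only in the lysis buffer. The study treated the 4 reporter strains of a host as its replicates, and the same was done here. The labels do not say whether the libraries of a strain came from 1 transformant.

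Electrons from NADH and succinate pass through the respiratory chain to cytochrome c and cytochrome c oxidase, and the protons pumped on the way drive the ATP synthase. ADP and phosphate enter and ATP leaves through the ADP/ATP carrier and other carriers of the inner membrane and through porin in the outer membrane. Neurospora also has an alternative oxidase that takes electrons from ubiquinol directly to oxygen, bypassing cytochrome c, and its gene aod-1 is known to be induced when the cytochrome pathway is impaired. CPC-3 is the Neurospora homolog of GCN2, a kinase that phosphorylates eIF2α on uncharged tRNA and thereby lowers translation initiation.

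The level of a gene is given in TPM, which is its deposited FPKM (fragments per kilobase of coding sequence and library size) brought to the same sum in every library, and ribosome density is RPF TPM over mRNA TPM. The labels held at cpc-3 (NCU01187), which had 0 to 0.117 RPF TPM in Δcpc-3 libraries and 5.81 to 7.69 in WT libraries. RPF libraries held 1.27 M to 7.06 M reads in Δcpc-3 strains and 2.74 M to 10.04 M in WT strains (M, 1e6), and mRNA libraries 1.26 M to 1.75 M in Δcpc-3 strains and 0.939 M to 1.19 M in WT strains. Replicate 4 of Δcpc-3 1xWT-EDP stood apart from the other libraries of its strain, with a chi-square per degree of freedom over genes of 14.4 to 28.7 against 2.00 to 2.71 for the other 12 pairs of Δcpc-3 replicates. The WT libraries numbered 3 also stood apart from numbers 1 and 2 (4.76 to 6.38, against 2.02 to 2.23 between numbers 1 and 2). The hyphal markers hex-1 and act together had 2756 to 3480 mRNA TPM in Δcpc-3 strains and 3856 to 4304 in WT strains. Of the 5 conidiation markers con-6, con-8, con-10, con-13 and eas, the summed mRNA level was 2163 to 3118 TPM in Δcpc-3 strains and 1175 to 1395 TPM in WT strains, carried by eas and con-8, while con-13 was at 0 in every RPF library. The part of these markers in the results was not tested, and in such bulk samples fewer cells of a type and less RNA per cell cannot be told apart.

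A property of the deposited values bears on 4 of the 6 genes. Each FPKM came with the bounds of an interval, and the midpoint of the interval, which is proportional to the reads per kilobase, is a second value for the same gene. In WT RPF libraries the FPKM was 0.952 to 1.14 times the midpoint for por, 0.949 to 1.19 times for aac, 0.824 to 1.01 times for atp-1 and 0.817 to 1.04 times for atp-2. In replicates 1 to 3 of Δcpc-3 1xWT-EDP it was 0.785 to 1.00 times the midpoint for these 4 genes. In the other 10 Δcpc-3 RPF libraries, however, it was only 0.466 to 0.607 times for por, 0.466 to 0.591 times for aac, 0.443 to 0.534 times for atp-1 and 0.416 to 0.524 times for atp-2. The ratio of aod-1 stayed between 0.862 and 1.01 in Δcpc-3 libraries and between 1.00 and 1.06 in WT libraries, and that of cyc-1, whose CDS of 327 nt is the shortest of the 6, was 1.96 to 2.34 and 2.39 to 2.44. Other abundant genes shared the low ratio: for the most abundant 10% of the genes with a CDS of 800 to 2000 nt, the median ratio was 0.519 to 0.635 in the 10 libraries and 0.908 to 1.10 in WT libraries. Results are therefore given with both values, FPKM first, and the midpoint was tried after this had been seen in the data. The origin of the low ratio was not tested.

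**Figure D1:**
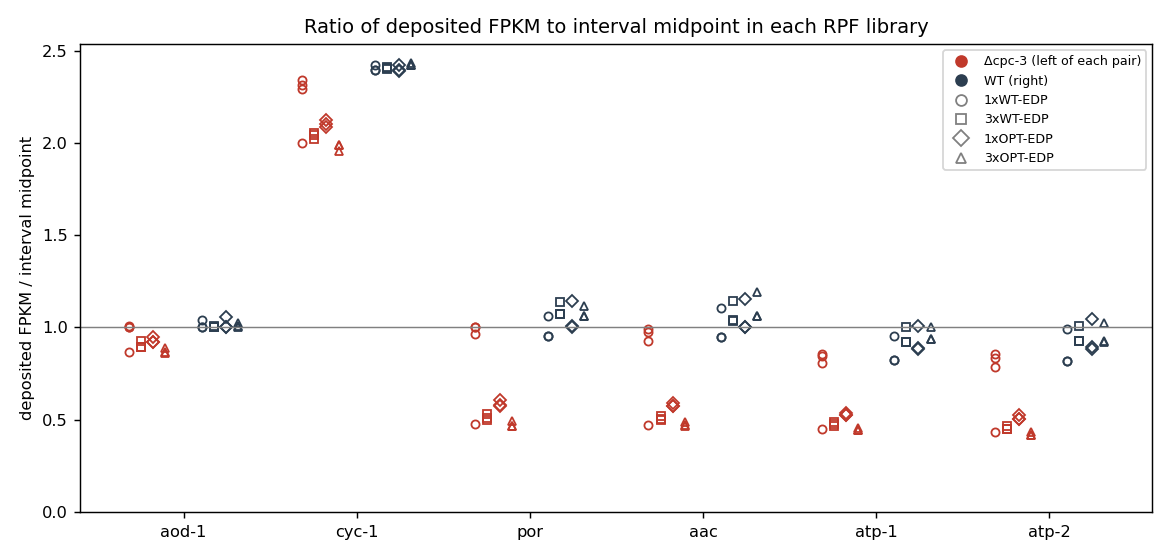
Ratio of deposited FPKM to interval midpoint for the 6 genes in each of the 25 RPF libraries, with 1 point per library and the Δcpc-3 libraries left of the WT libraries. For por, aac, atp-1 and atp-2, 10 of the 13 Δcpc-3 libraries lie at 0.416 to 0.607, below all other libraries.

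Of the 6 genes, aod-1 alone rose in the Δcpc-3 strains at the mRNA and RPF levels, and the other 5 fell at the RPF level (limma, Benjamini-Hochberg adjusted p under 0.05 over all tested genes). By this rule 15.2% of the 6695 genes tested rose in RPF and 38.7% fell, so that a fall was common among all genes. In mRNA, 1 of the 6 genes rose and 1 fell, where 15.6% of the 7911 genes tested rose and 2.72% fell. In ribosome density 4 of the 6 fell and none rose, where 37.6% of the 6686 genes tested fell and 2.09% rose. With the interval midpoint, 3 of the 6 fell in RPF and 1 rose (22.3% and 21.2% of 6986 genes), 1 fell and 1 rose in mRNA (2.1% and 14% of 8917 genes), and 1 fell in density and none rose (19.3% and 2.12% of 6979 genes). No member had a higher density at an unadjusted p under 0.05 by FPKM, and 1, cyc-1, did by the midpoint. These comparisons express each gene as a share of its library. The median gene changed by −0.18 on the log2 scale in RPF, by 0.36 in mRNA and by −0.51 in density with FPKM, and by −0.01, 0.43 and −0.32 with the midpoint. A change relative to these medians is the printed change minus the median.

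**Figure D2:**
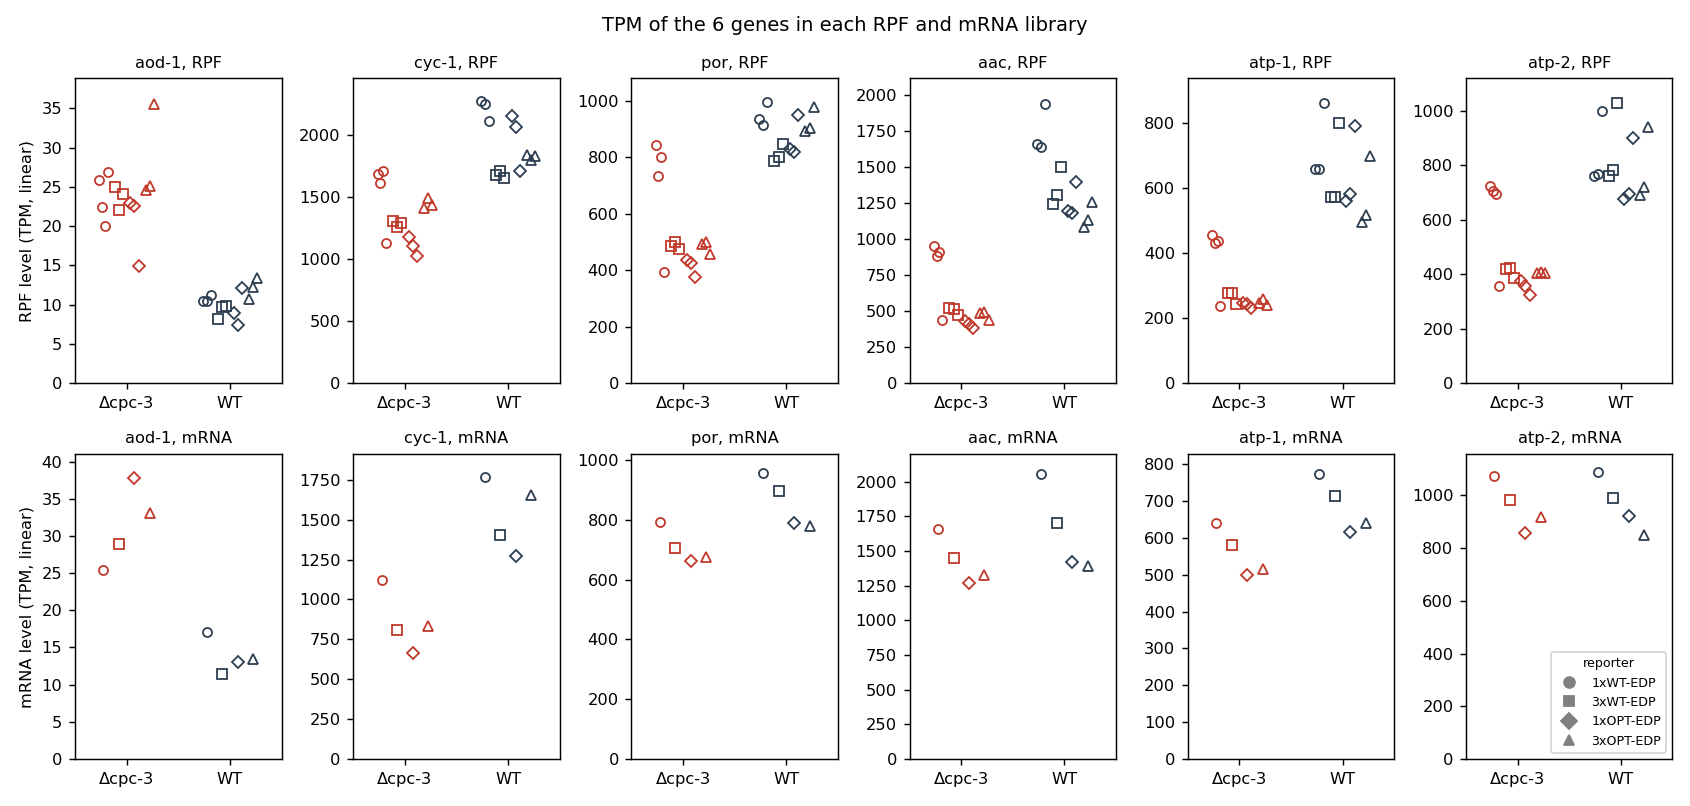
RPF (25 libraries) and mRNA (8 libraries) levels of the 6 genes in TPM on linear axes from 0, with Δcpc-3 left of WT and 1 point per library. The aod-1 points of Δcpc-3 libraries lie above all WT points in both assays, and the cyc-1 mRNA points of Δcpc-3 libraries lie below all WT points.

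aod-1 encodes the alternative oxidase, and it was the least abundant of the 6 genes in all strains. Its mRNA level was 25.5, 29.0, 37.8 and 33.1 TPM in the Δcpc-3 strains with 1xWT-EDP, 3xWT-EDP, 1xOPT-EDP and 3xOPT-EDP, and 17.04, 11.4, 13.01 and 13.5 TPM in the WT strains with the same reporters. All 4 Δcpc-3 libraries lay above all 4 WT libraries, and the mRNA rose 2.27-fold (log2 change 1.18, SE 0.18, limma adjusted p = 0.0067). These levels rest on 77 to 99.5 reads per library in Δcpc-3 strains and 25.5 to 38 in WT strains. The RPF level had a lowest value of 14.96, a median of 24.1 and a highest value of 35.6 TPM over the 13 Δcpc-3 libraries, and 7.36, 10.5 and 13.5 TPM over the 12 WT libraries. Here too no Δcpc-3 library overlapped a WT library, and the RPF level rose 2.37-fold (log2 change 1.25, SE 0.11, limma adjusted p = 3.36e-05), which placed aod-1 above 98.3% of the tested genes. The midpoint gave nearly the same changes, 1.17 in mRNA (limma adjusted p = 0.0105) and 1.28 in RPF (adjusted p = 7.92e-05).

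The rise of aod-1 RPFs therefore came with a rise of its mRNA of about the same size. Its ribosome density was 0.981, 0.813, 0.575 and 0.796 in the Δcpc-3 strains, in the reporter order above, and 0.627, 0.793, 0.708 and 0.875 in the WT strains. The hosts overlapped, and no change was detected (log2 change 0.06, 95% interval −0.39 to 0.51, limma adjusted p = 0.82). The median density of all tested genes was lower in Δcpc-3 strains, at 0.664 to 0.736, than in WT strains, at 0.923 to 1.03. With changes centred on the median gene, the aod-1 density change was 0.56 (limma adjusted p = 0.066) and its mRNA change 0.80 (adjusted p = 0.022). In each reporter background taken by itself the RPF level of aod-1 rose, by 1.14 (1xWT-EDP), 1.36 (3xWT-EDP), 1.08 (1xOPT-EDP) and 1.21 (3xOPT-EDP) on the log2 scale, with limma adjusted p of at most 8.75e-05.

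cyc-1 encodes cytochrome c, the soluble carrier that delivers electrons to cytochrome c oxidase. With library sums as the common scale, cyc-1 alone among the 6 had an mRNA fall that passed the test (after median centring por, aac, atp-1 and atp-2 passed as well). Its mRNA level was 1121, 810, 666 and 831 TPM in the Δcpc-3 strains with 1xWT-EDP, 3xWT-EDP, 1xOPT-EDP and 3xOPT-EDP, and 1765, 1405, 1273 and 1657 TPM in the WT strains. The hosts did not overlap, and the log2 change of −0.85 (SE 0.19, limma adjusted p = 0.026) was lower than that of all but 2.63% of the tested genes. Leaving out any 1 of 5 strains, however, took the adjusted p above 0.05, to between 0.051 and 0.068 (Δcpc-3 3xWT-EDP, 1xOPT-EDP and 3xOPT-EDP, and WT 1xWT-EDP and 3xOPT-EDP), with changes of −0.73 to −0.84.

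The RPF level of cyc-1 had a lowest value of 1026, a median of 1308 and a highest value of 1710 TPM over the Δcpc-3 libraries, and 1653, 1836 and 2277 TPM over the WT libraries. The highest Δcpc-3 libraries reached the lowest WT libraries, but the merged profiles of the 4 backgrounds did not overlap, and the RPF level fell by 0.52 on the log2 scale (SE 0.13, limma adjusted p = 0.0068). With the midpoint it fell by 0.44 (adjusted p = 0.0096). Its density was 1.38, 1.58, 1.70 and 1.74 in Δcpc-3 strains and 1.26, 1.20, 1.57 and 1.10 in WT strains, which overlap. The density change of 0.32 (95% interval −0.04 to 0.69, limma adjusted p = 0.13) did not pass the test. Centred on the median gene it was 0.83 with an adjusted p of 0.013, since the median gene lost density.

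aac encodes the ADP/ATP carrier, which exchanges cytosolic ADP for mitochondrial ATP across the inner membrane. Its RPF level had a lowest value of 380, a median of 491 and a highest value of 950 TPM over the Δcpc-3 libraries, and 1087, 1281 and 1937 TPM over the WT libraries. The hosts did not overlap. The RPF level fell by 1.31 on the log2 scale (SE 0.21, limma adjusted p = 5.85e-04), and 4.08% of the tested genes had a lower change. The 3 highest Δcpc-3 libraries were replicates 1 to 3 of 1xWT-EDP. With the midpoint the fall was smaller, 0.59 (adjusted p = 0.013). The merged profiles of the 4 backgrounds then still did not overlap between hosts. Single libraries did, with a highest value of 1884 TPM in Δcpc-3 strains and a lowest of 1870 TPM in WT strains.

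The mRNA level of aac was 1661, 1449, 1269 and 1329 TPM in the Δcpc-3 strains and 2055, 1701, 1419 and 1393 TPM in the WT strains, which overlap (log2 change −0.19, limma adjusted p = 0.45). Ribosome density was 0.489, 0.353, 0.328 and 0.364 in Δcpc-3 strains and 0.836, 0.766, 0.876 and 0.811 in WT strains. All 4 Δcpc-3 values lay below all WT values, and density fell by 1.12 (SE 0.16, limma adjusted p = 0.0022), the largest fall among the 6 genes. It was the only one of the 6 that also lost density with the midpoint, by 0.39 (SE 0.10, adjusted p = 0.035), but the midpoint with median centring gave −0.07 (adjusted p = 0.70). The fall of aac was thus larger than that of the median gene by FPKM and close to it by the midpoint.

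por encodes porin, the voltage-dependent anion channel of the outer membrane. Its RPF level had a lowest value of 374, a median of 487 and a highest value of 842 TPM over the Δcpc-3 libraries, and 787, 898 and 996 TPM over the WT libraries. The highest Δcpc-3 libraries overlapped the lowest WT libraries, and the log2 change of the merged profiles was −0.75 (SE 0.15, limma adjusted p = 0.0023). With the midpoint it was −0.05 (95% interval −0.27 to 0.18, adjusted p = 0.74). Its mRNA level was 792, 705, 661 and 676 TPM in Δcpc-3 strains and 956, 898, 789 and 780 TPM in WT strains, with a log2 change of −0.27 that did not pass the test (adjusted p = 0.16). Its density was 0.899, 0.695, 0.642 and 0.725 in Δcpc-3 strains and 0.984, 0.892, 1.09 and 1.16 in WT strains. The Δcpc-3 strain with 1xWT-EDP lay within the WT range, and the density change of −0.48 (SE 0.16, limma adjusted p = 0.040) was close to that of the median gene. It turned to 0.22 with the midpoint (adjusted p = 0.23) and to 0.02 after median centring (adjusted p = 0.94). Without replicate 4 of Δcpc-3 1xWT-EDP it was −0.43 (adjusted p = 0.10), without the WT RPF libraries numbered 3, left out after seeing the data, −0.46 (adjusted p = 0.054), and without any 1 of 6 of the 8 strains it lost its call as well. The density call of por thus depended on the value, on the scaling and on single strains.

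atp-1 and atp-2 encode the α and β subunits of the F1 part of the ATP synthase, of which the enzyme holds the same number. The RPF level of atp-1 had a lowest value of 230, a median of 247 and a highest value of 455 TPM over the Δcpc-3 libraries, and 495, 618 and 860 TPM over the WT libraries. That of atp-2 was 325, 405 and 723 TPM over the Δcpc-3 libraries, and 676, 765 and 1030 TPM over the WT libraries. The hosts did not overlap for atp-1, whereas for atp-2 the highest Δcpc-3 libraries, those of 1xWT-EDP, reached the lowest WT libraries. With FPKM the RPF level of atp-1 fell by 1.11 on the log2 scale (SE 0.16, limma adjusted p = 3.88e-04) and that of atp-2 by 0.81 (SE 0.16, adjusted p = 0.0020). With the midpoint that of atp-1 fell by 0.46 (SE 0.10, adjusted p = 0.0074), whereas the atp-2 change was −0.09 (95% interval −0.30 to 0.11, adjusted p = 0.44).

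At the mRNA level neither F1 subunit passed the test. That of atp-1 was 639, 581, 499 and 515 TPM in Δcpc-3 strains and 774, 713, 617 and 639 TPM in WT strains (log2 change −0.30, limma adjusted p = 0.16). That of atp-2 was 1074, 984, 858 and 917 TPM in Δcpc-3 strains and 1090, 989, 920 and 848 TPM in WT strains (log2 change −0.00, 95% interval −0.31 to 0.30, adjusted p = 0.99). Densities of atp-1 were 0.620, 0.464, 0.484 and 0.487 in Δcpc-3 strains and 0.910, 0.846, 1.02 and 0.830 in WT strains. Densities of atp-2 were 0.585, 0.419, 0.420 and 0.443 in Δcpc-3 strains and 0.752, 0.816, 0.807 and 0.866 in WT strains. The hosts did not overlap for either gene, and both fell by 0.81 (limma adjusted p = 0.0049 for atp-1 and 0.0054 for atp-2). With the midpoint the changes were −0.17 (adjusted p = 0.28) and −0.10 (adjusted p = 0.49), and neither passed the test. After median centring of the FPKM changes they were −0.31 for both (adjusted p = 0.11 and 0.13).

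**Figure D3:**
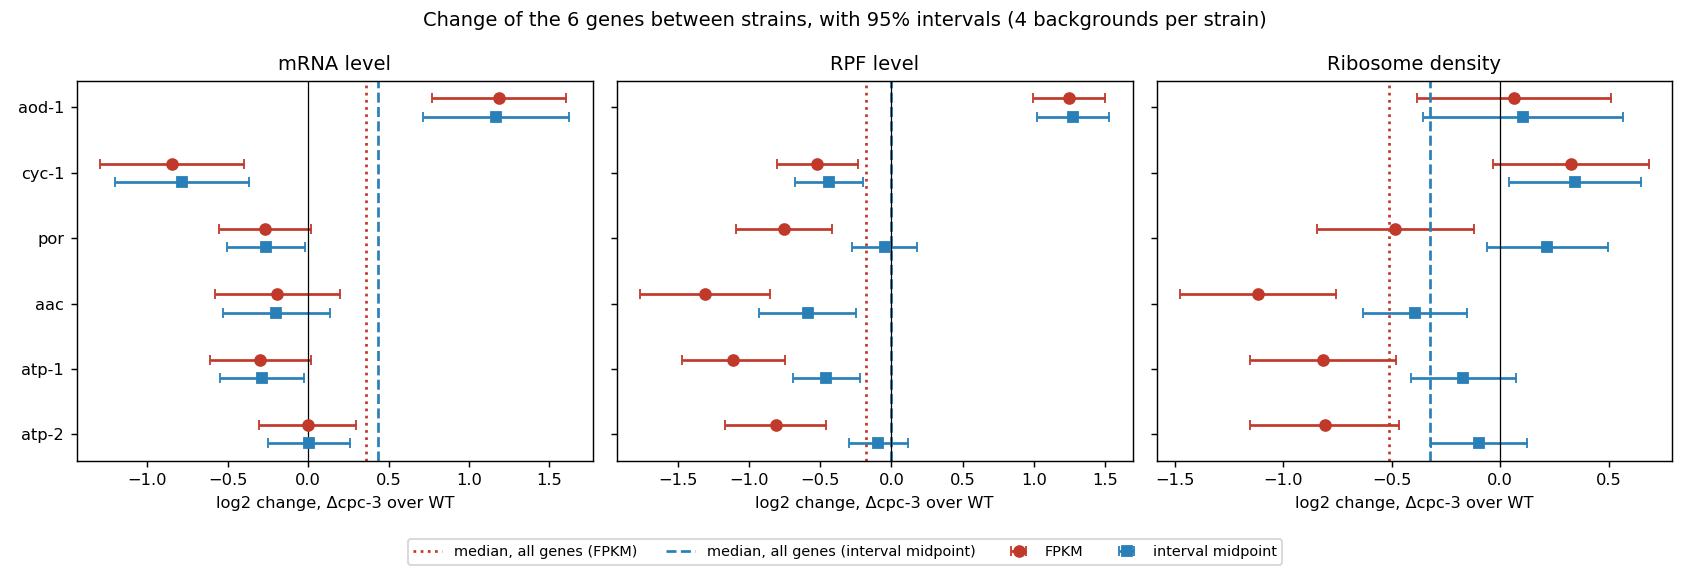
Log2 change, Δcpc-3 over WT, of the 6 genes in RPF, mRNA and ribosome density, with 95% intervals, from FPKM and from the interval midpoint; the median of all tested genes is marked. The FPKM and midpoint changes coincide for aod-1 (1.25 and 1.28 in RPF) and lie apart for por (−0.75 and −0.05 in RPF), aac, atp-1 and atp-2.

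On the mRNA level the scaling decided how many of the 6 genes changed. With sums as the common scale 2 passed the test, and with changes centred on the median gene, which rose by 0.36, all 6 did: aod-1 was higher by 0.80, and the other 5 were lower by 0.39 (atp-2) to 1.23 (cyc-1). The adjusted p of por, aac, atp-1 and atp-2 was then 0.00569, 0.023, 0.00695 and 0.0375 (limma). For por, aac, atp-1 and atp-2 the RPF values were also compared within the 1xWT-EDP strains from replicates 1 to 3 of each host, in which the ratio of FPKM to midpoint was alike. This comparison was added after seeing the data and has 1 strain per host. There aac fell by 0.93 (limma adjusted p = 8.02e-07), atp-1 by 0.71 (adjusted p = 0.0017) and por by 0.26 (adjusted p = 0.023), while the atp-2 change was −0.24 (adjusted p = 0.20). aod-1 rose by 1.07 and cyc-1 fell by 0.41 in the same libraries (adjusted p = 1.78e-04 and 8.61e-04). The density changes there, which have no test because each host has 1 mRNA library, were 0.61 for aod-1, 0.24 for cyc-1, 0.062 for por, −0.57 for aac, −0.38 for atp-1 and −0.18 for atp-2.

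The host comparison was also made within each reporter background, over the replicate libraries of each strain. With 1 strain per host in each background, these p-values measure the spread between libraries and not that between strains. aod-1 rose in all 4, where 12.7% (1xWT-EDP), 9.69% (3xWT-EDP), 7.14% (1xOPT-EDP) and 10.2% (3xOPT-EDP) of 6698 genes rose. By FPKM 4 of the 6 fell in the 1xWT-EDP strains and 5 of the 6 in each other background, where 23.1%, 34%, 41.8% and 32% of all genes fell, in the same order. The exception was atp-2 in the 1xWT-EDP strains (log2 change −0.49, limma adjusted p = 0.061). aac had the largest fall of the 6 in every background, from 1.19 (1xWT-EDP) to 1.62 (1xOPT-EDP). With the midpoint aac still fell in every background, by 0.87, 0.53, 0.73 and 0.27, with an adjusted p of at most 0.016. The smallest of these falls was in the 3xOPT-EDP strains, where FPKM gave a fall of 1.29. atp-1 also fell in every background with the midpoint (limma adjusted p of at most 0.038). By the midpoint atp-2, however, passed the test in no background (limma adjusted p of 0.11 to 0.76). The fall of por then passed only in the 1xWT-EDP strains, and that of cyc-1 only in the 1xWT-EDP and 1xOPT-EDP strains.

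With all libraries 1 of the 6 genes passed the test in 1 of the reporter comparisons by FPKM. Codon effects (OPT against WT) and copy effects (3 against 1) were compared within each host over all 25 RPF libraries, with 1 strain per host and reporter. By FPKM no member passed the test for codons in WT hosts (0.866% of 6698 genes called in either direction), copies in WT hosts (0.0746%), copies in Δcpc-3 hosts (2.69%), the host by codon interaction (2.43%) or the host by copy interaction (0.776%). At an unadjusted p under 0.05, limma gave 1, 1, 0, 1 and 1 of the 6 genes in these comparisons. For codons in Δcpc-3 hosts 1 of the 6 passed (3.97% of all genes): aac was lower with OPT codons by 0.50 (SE 0.13, limma adjusted p = 0.044). It no longer passed with the midpoint, where the change was −0.19 (adjusted p = 0.097) and 1.03% of 6987 genes passed. The aac call was also lost when any 1 of 20 of the 25 libraries was left out (adjusted p of at most 0.12).

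Replicate 4 of Δcpc-3 1xWT-EDP, the library that stood apart from its strain, moved these FPKM counts the most. Without it, 5 of the 6 genes were lower with OPT codons in Δcpc-3 hosts, where 25.3% of all genes were called: aac by 0.63 (limma adjusted p = 8.43e-06), atp-2 by 0.51, atp-1 by 0.49, por by 0.48 and cyc-1 by 0.21. With 3 copies, 4 were lower in Δcpc-3 hosts (18.5% of all genes called): atp-1 by 0.34, aac by 0.32, atp-2 by 0.29 and por by 0.23 (adjusted p of 0.0038 to 0.048). por then had a codon effect that differed between hosts (−0.50, adjusted p = 8.45e-04), and aac was lower with OPT codons in WT hosts (−0.34, adjusted p = 0.010). The 3 libraries that then stand for Δcpc-3 1xWT-EDP are those whose ratio of FPKM to midpoint for por, aac, atp-1 and atp-2 lay near that of WT libraries, while the remaining Δcpc-3 libraries had the low ratio. The part of this ratio in the reporter effects was not tested beyond the midpoint values.

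In the WT hosts the RPF level of aac was 1745 ± 166 TPM with 1xWT-EDP, 1349 ± 135 with 3xWT-EDP, 1258 ± 122 with 1xOPT-EDP and 1159 ± 86.9 with 3xOPT-EDP (SD, n = 3 libraries each), and its mRNA stood in nearly the same order at 2055, 1701, 1419 and 1393 TPM. With the midpoint, which varied less between replicates, aac was lower with OPT codons by 0.39 (limma adjusted p = 3.58e-04, 2.35% of all genes called) and with 3 copies by 0.27 (adjusted p = 0.040, 0.286% called), the only calls among the 6 genes in WT hosts. In Δcpc-3 hosts the FPKM levels of aac were 797 ± 238 (n = 4), 505 ± 28.3, 408 ± 25.4 and 474 ± 29.4 TPM (SD, n = 3 libraries each) in the same reporter order. The large spread in 1xWT-EDP lay in replicate 4, at 442 TPM. With the midpoint 1 of the 6 passed for copies in Δcpc-3 hosts, por, higher by 0.22 with 3 copies (adjusted p = 0.019, 5.44% called). The effect of copies then differed between hosts for por (0.32, adjusted p = 0.026) and aac (0.40, adjusted p = 0.0091), 2 of the 6 genes where 2.58% of all genes differed. None of the 6 differed for codons (2.2% of all genes), with 1 at an unadjusted p under 0.05.

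By level the 6 genes spanned more than 2 orders of magnitude in WT strains, and their order depended on the value used. The span was smaller in Δcpc-3 strains, where the mean RPF level was 24.1 TPM for aod-1 and 1352 TPM for cyc-1. In WT strains the mean RPF level was 1935 ± 234 TPM for cyc-1, followed by aac, por, atp-2, atp-1 and aod-1 at 10.2 ± 1.304 TPM (SD, n = 4 backgrounds). cyc-1 and aac kept this order in all 4 backgrounds although their ranges overlapped (1688 to 2228 TPM and 1130 to 1717 TPM), and the ranges of por and atp-2 overlapped as well. aac had the highest mean by mRNA, at 1427 ± 173 TPM in Δcpc-3 strains and 1642 ± 309 TPM in WT strains (SD, n = 4 each), although in WT 3xOPT-EDP cyc-1 mRNA (1657 TPM) lay above that of aac (1393 TPM). By the midpoint, in which the short CDS of cyc-1 is not scaled up, aac led in RPF in WT strains. By FPKM, aod-1 stood at the 65.6th to 70.0th percentile of all genes in RPF level in Δcpc-3 strains and at the 39.4th to 48.7th in WT strains, whereas cyc-1 stayed above the 98th in both hosts. By the midpoint cyc-1 stood at the 97.3rd to 98.0th percentile in Δcpc-3 strains.

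The ratio of the subunits of F1 differed between hosts and did not depend on the value used. It was examined after the levels had been seen. atp-2 RPFs were 1.56 ± 0.0578 times those of atp-1 in Δcpc-3 strains and 1.27 ± 0.110 times in WT strains (SD, n = 4 backgrounds each), and their mRNAs 1.72 ± 0.0439 and 1.40 ± 0.0683 times. All 4 Δcpc-3 backgrounds lay above all WT backgrounds in both assays (two-sided exact permutation of the hosts, p = 0.0286, which is the smallest value 4 against 4 can give). Benjamini-Hochberg adjustment over 4 tests, which include the ratio of aod-1 to cyc-1 below, could not change it, since all 4 had this value. It does not account for the choice of the pair, and other pairs of genes were not compared. Over single RPF libraries the ratio was 1.41 to 1.68 in Δcpc-3 strains and 1.14 to 1.39 in WT strains. With the midpoint it was 1.62 ± 0.0725 and 1.26 ± 0.117 in RPF. The ratio of aod-1, of the alternative branch, to cyc-1, of the cytochrome branch, was 0.0117 to 0.0248 over the Δcpc-3 RPF libraries. Over the WT RPF libraries it was 0.00357 to 0.00733, again without overlap. This separation follows from the rise of aod-1 and the fall of cyc-1 given above and is no further result.

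**Figure D4:**
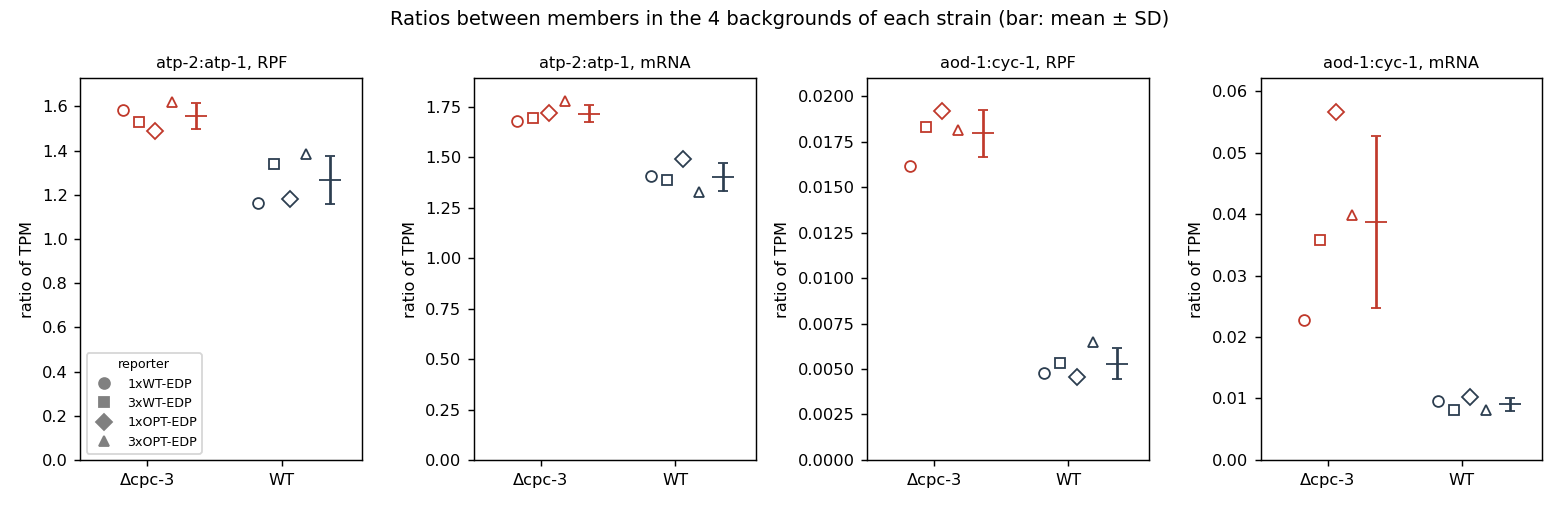
Ratios of TPM of atp-2 to atp-1 and of aod-1 to cyc-1 in RPF and mRNA profiles of the 4 reporter backgrounds, Δcpc-3 left of WT, with mean and SD. All 4 Δcpc-3 points lie above all 4 WT points in each panel (for atp-2 to atp-1 in RPF, 1.49 to 1.62 and 1.16 to 1.38).

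Across the 25 RPF libraries the levels of por, aac, atp-1 and atp-2 varied together. Pearson's r between pairs of these 4 was 0.95 to 0.99, which includes the difference between hosts, and the libraries share the ratio of FPKM to midpoint described above. It was 0.97 to 0.99 within the 13 Δcpc-3 libraries and 0.48 to 0.90 within the 12 WT libraries. aod-1 ran opposite to all 5 others over all libraries (r of −0.69 to −0.80). Within Δcpc-3 libraries r between aod-1 and the others was only −0.08 to 0.32. Within WT libraries it was 0.82 with por, 0.45 with atp-2, 0.32 with atp-1, 0.19 with aac and −0.11 with cyc-1. The opposite course was thus between hosts.

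Among 6698 genes, those most like each member in RPF level over the 25 libraries were NCU01835 and NCU07808 for aod-1 (r = 0.94 for both) and NCU00243 and NCU00768 for cyc-1 (r = 0.94 and 0.93). For por they were lys-5 (NCU05526), a gene of lysine biosynthesis by its name, and cyt-26 (NCU09816), with r of 0.98 each. For aac they were cpc-2 (NCU05810), the Neurospora homolog of the ribosome-associated scaffold RACK1, and NCU00413, with r of 0.99 each. NCU02181 (r = 1.00) and NCU00040 (r = 0.99) were most like atp-1, and NCU00502, which belongs to the list of the mitochondrial ATP synthase complex, and NCU04404 were most like atp-2 (r = 0.99 each). These values describe the same libraries as above and share their depth and scaling. They were taken from FPKM over both hosts, so they include the difference between hosts and the ratio of FPKM to midpoint that abundant genes shared. The part of each in these correlations was not tested.

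Other genes of oxidative phosphorylation were examined as lists, which show the same dependence on the value. Their counts stand against all tested genes, of which 38.7% fell and 15.2% rose in RPF and 37.6% fell and 2.09% rose in density by FPKM, and 22.3%, 21.2%, 19.3% and 2.12% by the midpoint in the same order. Of the 26 further respiratory chain genes, 12 fell and 2 rose in RPF (median change −0.23, against −0.18 for all genes), and in density 5 fell and 5 rose (median −0.07, against −0.51). Their density extremes were fes-1, the Rieske iron-sulfur protein of complex III, at −1.26 (limma adjusted p = 0.0016; −0.51 with the midpoint), and NCU03233 at 0.89 (adjusted p = 0.0040). Of the 10 genes of the ATP synthase complex list, 6 fell and 1 rose in RPF (median −0.52), and 3 fell and 1 rose in density (median −0.14), from NCU00502 at −1.01 to NCU08093 at 0.69. In mRNA 1 of the 26 fell, where 2.72% of all tested genes fell, and the medians of both lists, −0.30, lay below the median gene at 0.36. With the midpoint 6 fell and 3 rose of the 26 in RPF and 1 fell and 3 rose in density, and of the 10, 3 fell and 1 rose in RPF and 0 fell and 1 rose in density. The study picked both lists for short CDS with optimal codons.

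The lists found by symbol are read against the same shares of all genes. They are not separate from the lists above, since fes-1 and nuo30.4, among others, also stand in the respiratory chain list. Of 30 complex I subunits found by symbol, 16 fell and 3 rose in RPF, and 9 fell and 2 rose in density (by the midpoint 12 fell and 2 rose in RPF, and 1 fell and 1 rose in density), from nuo78 at −0.88 to nuo10.6 at 0.59 in density. A further list held 16 genes with symbols of the cytochrome kind, such as fes-1 and cyt-21. Whether each product acts in the cytochrome pathway was not checked, and a symbol alone does not show it. Of these 16 genes, 10 fell in RPF, and 7 fell and 1 rose in density. By the midpoint 5 fell and 2 rose in RPF, and 2 fell and 1 rose in density. The highest in density was cyt-21 at 0.60 (limma adjusted p = 0.15). Of 18 import genes, whose products bring nuclear-encoded proteins into mitochondria, 6 fell and 3 rose in RPF (median 0.08) and 3 fell and 1 rose in density (by the midpoint 4 fell and 1 rose in RPF, and 2 fell and 1 rose in density), from tom70, a receptor of the outer membrane, at −1.02 to tom7 at 1.06 (adjusted p = 0.073). In mRNA 2 of the 16 rose and 1 of the 18 fell, where 15.6% of all tested genes rose and 2.72% fell.

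**Figure D5:**
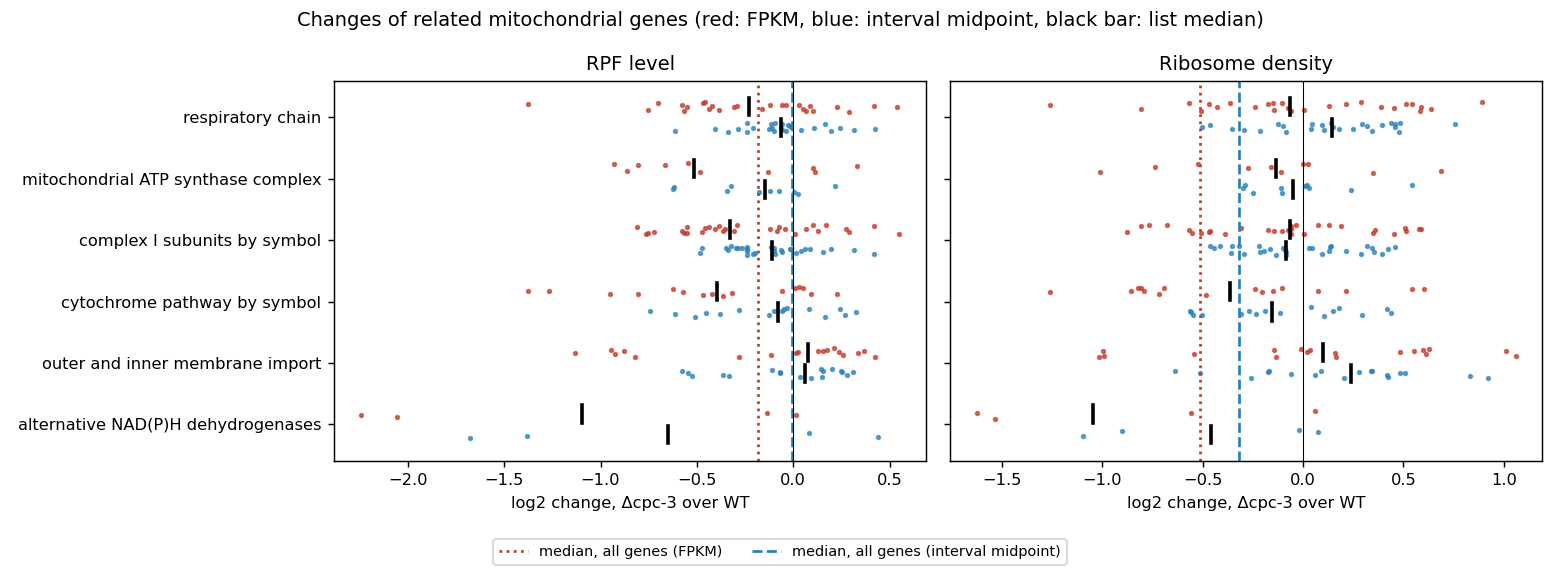
Log2 change, Δcpc-3 over WT, of each gene (1 point per gene) of 6 lists of related mitochondrial genes in RPF level and ribosome density, from FPKM (red) and from the interval midpoint (blue), with a black bar at the list median and vertical lines at the median of all tested genes. The density medians from FPKM of the respiratory chain (−0.07) and of the ATP synthase complex (−0.14) lie above that of all genes (−0.51).

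Genes close to aod-1 in function were examined one by one. aod-2 and aod-5 encode the transcription factors required for aod-1 induction. aod-5 mRNA was higher by 0.75 (limma adjusted p = 0.017) but its density fell by 0.81 (adjusted p = 0.0073) and its RPF change was −0.07 (adjusted p = 0.64), and aod-2 mRNA changed by −0.01 (adjusted p = 0.99). aod-3, a second alternative oxidase gene, had an mRNA change of 0.97 with an adjusted p of 0.40 and was too low to be tested in RPF. Of the 4 alternative NAD(P)H dehydrogenases, which like the alternative oxidase move electrons without pumping protons, ndi-1 had an RPF change of −2.24 (limma adjusted p = 1.32e-05) and nde-2 one of −2.06 (adjusted p = 1.62e-04), and with the midpoint these were −1.68 and −1.38. nde-1 had an RPF change of −0.14 by FPKM (adjusted p = 0.39) and of 0.44 by the midpoint (adjusted p = 0.0025), and nde-3 had one of 0.01. The aod genes, nde-1 and nde-2 were named here after their values had been seen.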

How the data were processed

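The authors mapped RPF and mRNA reads to CDS regions, for which the submitters' processing notes name Bowtie2 and Cufflinks; versions, genome build and annotation are not given in the sources used here. The deposited FPKM and the bounds of their intervals were used, and the deposited coverage, a signal equal to FPKM times 1 factor per library, added nothing further. The spacing of the bounds was a whole number of reads within 0.05 reads for 100% of the values tested, which gave the depth of each library and the reads per gene. Replicates were deposited separately.

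TPM were FPKM over the library sum, and the RPF replicates of a strain were merged by a mean weighted by their reads. The tests took genes whose mean TPM reached 1, and were run on log2(TPM + 0.1), or on the log2 ratio for density, so changes of low genes are understated. limma 3.58.1 in R 4.3.3 was used with Benjamini-Hochberg adjustment over all tested genes, with 4 strains per host for the host comparison. The reporter comparisons and the host comparisons within 1 background used 25 libraries in a model of host and reporter. The study's methods call the RPF replicates of a strain biological, and the labels do not say whether they were separate cultures. The p-values of the reporter comparisons and of the host comparisons within 1 background therefore measure the spread between libraries of single strains. The script of the fits was tested on simulated data. Python 3.11.15 with numpy 2.4.6, scipy 1.17.1, pandas 2.3.3 and matplotlib 3.10.9 was used for the remaining steps. No replicate pair agreed within sampling noise.

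The members and lists were chosen with earlier results of these data known. Named are the 6 genes, the 2 genes most like each in RPF level, cpc-3, and the highest and lowest density change of each list; other names were added after their values were seen. Symbols came from the NC12 table of RefSeq, where 9728 of the 9729 identifiers were found. That table gives no product names, so lists were drawn from symbols, or from lists of the study. Genes of the mitochondrial chromosome were not analysed here. Alternatives covered the pseudocount, the minimum TPM, the value, the scaling, the merging, the test, the block and each library.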

Additional observations from a re-analysis of the deposited data

Results flagged for a closer look

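In 42 groups of 4 libraries or backgrounds the highest or lowest value was compared with the range of its group, a comparison that chance passes in about 1 group in 20. The Δcpc-3 strain with 1xWT-EDP lay apart from the other 3 Δcpc-3 backgrounds in the ribosome density of atp-1 (0.620) and of atp-2 (0.585), above them in both. Within the 4 RPF libraries of that strain, replicate 4 lay apart below the other 3 for aac (442 TPM), atp-1 (238 TPM) and atp-2 (356 TPM). The effect of 3 against 1 reporter copies on RPF levels differed between the hosts by 0.32 for por and 0.40 for aac on the log2 scale with the interval midpoint (limma interaction term, adjusted p = 0.026 and 0.0091), and with FPKM by −0.04 and 0.05 (adjusted p = 0.95 for both).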

How the results depend on the processing

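The number of the 6 genes called in ribosome density was 4 by FPKM, 1 with the interval midpoint, 2 with median centring and 2 with both together, and in mRNA it was 2, and 6 with median centring with or without the midpoint. The por density change turned to 0.22 with the midpoint, 0.018 with median centring, 0.54 with both and 0.062 in the 1xWT-EDP strains (RPF replicates 1 to 3). The midpoint with centring also turned the density changes of atp-1 (0.15) and atp-2 (0.22). The mRNA change of atp-2, near 0, was 0.0055 with the midpoint and 0.023 with NCU16635, a CDS of large TPM share, and the reporters out of the sum. With these out of the sum 3 genes were called in density, and the por density change was −0.36 (limma adjusted p = 0.11). Leaving out 1 strain each gave 1 to 2 calls in mRNA, changes of −0.050 to 0.21 for aod-1 density and −0.062 to 0.058 for atp-2 mRNA. The midpoint gave 1 call for codons and 1 for copies in WT hosts, 0 for codons and 1 for copies in Δcpc-3 hosts and 2 for the host by copy interaction. For codons in Δcpc-3 hosts, 0 genes were also called without a minimum TPM and with NCU16635 and the reporters out of the sum. Leaving out 1 RPF library each gave 0 to 1 calls for codons in WT hosts, 0 to 5 for codons and 0 to 4 for copies in Δcpc-3 hosts, both highest without replicate 4 of Δcpc-3 1xWT-EDP, and 0 to 1 for the host by codon interaction. Reporter effects near 0 changed sign. In WT hosts these were aod-1 (−0.0015 to 0.18), cyc-1 (−0.059 to 0.025) and por (−0.0066 to 0.046) for codons and aod-1 (−0.0033 to 0.17) and atp-2 (−0.035 to 0.10) for copies over the libraries left out, and, without the WT libraries numbered 3, aod-1 (−0.00053) and cyc-1 (0.00050) for codons. In Δcpc-3 hosts aod-1 for codons was −0.092 to 0.093 over the libraries left out, 0.065 with the midpoint, 0.12 with median centring and 0.12 with NCU16635 and the reporters out. For copies there, the midpoint gave 0.22 for por, 0.13 for aac, 0.022 for atp-1 and 0.11 for atp-2. For the host by codon interaction the midpoint gave 0.20 for aac, 0.13 for atp-1 and 0.11 for atp-2, median centring 0.021 for aod-1 and 0.0037 for cyc-1, and the sum without NCU16635 and the reporters 0.027 for aod-1 and 0.0096 for cyc-1. For the host by copy interaction the midpoint gave 0.32 for por, 0.22 for atp-1 and 0.10 for atp-2, and leaving out 1 library gave −0.17 to 0.012 for por, −0.077 to 0.11 for aac and −0.17 to 0.023 for atp-1. The cause of these changes was not tested, beyond the fewer samples of a fit.

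The WT libraries numbered 3 deviated together (correlations of 0.19 to 0.30 over 6 pairs). Over all 84 pairs of libraries of different strains with the same number the correlations were −0.11 to 0.30, and across hosts −0.11 to 0.10, so the number does not pair the samples. For strains with the same reporter they were −0.13 to 0.20 in RPF, and no pairing was used. With the replicate number as a block, which drops replicate 4 of Δcpc-3 1xWT-EDP, 1 gene was called for codons in WT hosts, 5 for codons and 4 for copies in Δcpc-3 hosts and 1 for the host by codon interaction. In that block aod-1 for codons in Δcpc-3 hosts was 0.024 and aac for the host by copy interaction −0.077. With the reporter background as a block, 3 genes were called in density, 2 in mRNA and 6 in RPF. The depth limits aod-1 most, with 25.5 to 99.5 mRNA reads per library, and each mRNA level rests on 1 library per strain.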
